A study of Rattus norvegicus with 9 samples.

Results

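The fragments described here are the tRNA-derived small RNAs that stood on exactly 1 row of each deposited table. Each table had 2122 rows for 530 fragments, and a fragment stood on 1 to 37 rows. Of the 530 fragments, 183 stood on 1 row, and 182 of them are described. AS-tDR-000397 was left out because it had been set apart for its levels in these same libraries. The sources used here do not say what the number of rows stands for. The other fragments serve as comparison, 184 of them on 2 to 4 rows and 163 on 5 or more.

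The study profiled small RNA from the brain of male Sprague-Dawley rats, with 3 libraries in each of 3 groups. All rats were anaesthetised, had a burr hole drilled and received an injection into the right globus pallidus, and tissue from that region was taken at post-operation day 21 after a saline perfusion. Sham rats received saline only, at a volume of 2.5 μl. Rats with intracerebral haemorrhage (ICH) received 0.5 U of collagenase type VII in the same volume, an enzyme that breaks down vessel walls. Rats of the ICH + BYHWD group had the same haemorrhage and were given Buyang Huanwu Decoction, a herbal preparation of traditional Chinese medicine, into the stomach at 4.36 g/kg daily over 21 days. A gavage of vehicle for the other groups is not described in the labels, and the age of the animals at surgery is not given. The labels do not say outright that each library came from its own rat. The tables hold tRNA fragments only, so the tissue could not be checked against marker genes. In bulk tissue, fewer cells of a type and less RNA per cell cannot be told apart.

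Transfer RNAs carry amino acids to the ribosome, and defined pieces of them are found in all domains of life. Cuts in the anticodon loop, in mammals often by the ribonuclease angiogenin under stress, give the longer pieces called tiRNAs. Shorter tRFs come from the ends or the inside of mature tRNAs or from the trailers of precursors. Some of these pieces are known to lower translation or to bind Argonaute proteins. A genome holds many near-identical tRNA genes for 1 anticodon. The identifiers used below are those of the files, which pair them with no sequence, parent tRNA or fragment type, so no role can be given to a single fragment and no sequence is printed.

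The library totals were between 530827 and 1066616 tags, of which 71.2 to 80.6% fell on listed fragments. They were 530827 to 735460 in sham, 888167 to 1066616 in ICH and 683782 to 1002327 in ICH + BYHWD. Every ICH total lay above every sham total, so depth cannot be told apart from group in that comparison. The lowest total was that of sham 3. Levels are given in TPM, here the tag count scaled to a common library total, with no correction for length. The smallest listed count of a library lay between 76 and 149 tags, or 134 to 152 TPM. Its group means were 148 TPM in sham, 139 TPM in ICH and 147 TPM in ICH + BYHWD. A fragment with a count above 0 is called listed below, and a count of 0 was read as a level under that minimum, not as absence. The libraries ICH 2, sham 3 and ICH 3 touch several results. ICH 2 had the lowest scaling factor, 0.647 against 0.856 to 1.18 in the others. Sham 3 differed from sham 1 and sham 2 in a group of 8 fragments described below, and so did ICH 3 from ICH 1 and ICH 2. This was not confined to the 8 or to the class, since AS-tDR-000052, on 10 rows, was split in the same way.

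The single-row fragments were listed in fewer libraries, and at lower levels, than the classes on 2 to 4 rows and on 5 or more rows, though their level was close to that of the fragments on 2 rows alone. In a library, 65.5% of them were listed on average (58.2 to 69.8%), against 81.0% of the fragments on 2 to 4 rows (77.2 to 88.6%) and 90.9% of those on 5 or more (87.1 to 93.3%). The difference was -15.5 percentage points (SD 2.54, n = 9 libraries) to the 2 to 4 row fragments and -25.4 (SD 3.85) to those on 5 or more rows. The median level of the listed single-row fragments was 333 TPM (298 to 375), against 467 TPM (385 to 518) and 806 TPM (742 to 859). The medians differed by -134 TPM (SD 36.3) and -473 TPM (SD 30.5). Each of these 4 differences was negative in 9 of 9 libraries. The two-sided exact sign-flip permutation test gave p = 0.00391 for each, the smallest that 9 libraries allow, and the same value after adjustment over the 4 tests. The 9 libraries share the annotation and the listing minimum, so they are repeats of the measurement on the same fragments.

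Just outside the limit of 1 row were the 91 fragments on 2 rows. They were listed in 77.4% of cases in a library (71.4 to 89.0%), with a median listed level of 329 TPM (261 to 410), which is not above the 333 TPM of the single-row fragments.

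Of the 182 single-row fragments, 71 (39.0%) were listed in all 9 libraries, against 69.0% of the 348 other fragments, which include AS-tDR-000397. At the other end, 32 (17.6%) were listed in 1 library only, against 4.89% of these other fragments. Of the 91 fragments on 2 rows, 52.7% were listed in all 9 libraries and 7.69% in 1 only. In all, 57 (31.3%) of the single-row fragments were listed in 3 libraries or fewer. Zeros made up 565 of their 1638 values, or 34.5%. Among the values above 0, 43.9% lay under 2 times the lowest listed count of the library, against 30.1% for 2 to 4 rows and 14.7% for 5 or more. Values close to the listing minimum were thus more frequent in the single-row fragments than on 2 to 4 rows or on 5 or more. The fragments on 2 rows alone, whose median listed level was similar, were not counted in this way.

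**Figure D1:**
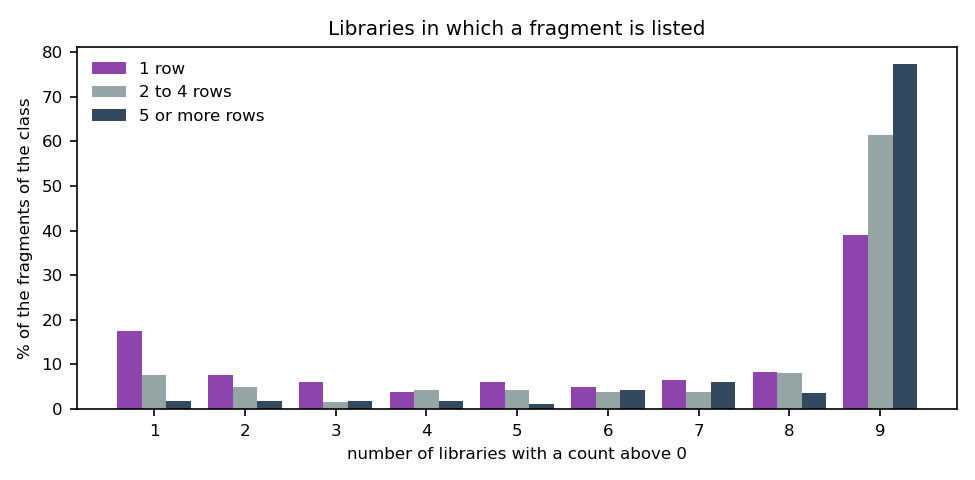
Share of the fragments of a class (y axis, percent) that had a count above 0 in a given number of libraries (x axis, 1 to 9), with 1 bar each for fragments on 1 row, 2 to 4 rows and 5 or more rows. The single-row fragments have the lowest bar at 9 libraries (39.0%) and the highest at 1 library (17.6%).

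The fragments listed in 1 library only were unevenly spread over the libraries. Sham 1 held 13 of the 32, ICH 2 held 5, and sham 3, ICH + BYHWD 1 and ICH + BYHWD 3 held 4 each. ICH 3 and ICH + BYHWD 2 held 1 each, and sham 2 and ICH 1 held 0. The highest of them were AS-tDR-008051, at 656 TPM (348 tags) in sham 3, and AS-tDR-008419, at 532 TPM (391 tags) in sham 1. AS-tDR-010043 followed at 416 TPM, also in sham 1, and AS-tDR-010052 at 357 TPM in ICH 2. These 4 stood well above the listing minimum of their library and yet below it in the other libraries of the same group.

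Together the single-row fragments took up a small part of the tags. Their share of the library total was 5.79%, 5.77% and 6.44% in sham 1 to 3, 6.23%, 5.29% and 6.80% in ICH, and 6.32%, 6.27% and 7.68% in ICH + BYHWD. The groups overlapped, with the lowest share in ICH 2 and the highest in ICH + BYHWD 3. The fragments on 2 to 4 rows held 12.1 to 14.9% and those on 5 or more rows 51.3 to 63.3%.

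The mean share (± SD, n = 3) was 6.001% ± 0.383 for sham, 6.11% ± 0.764 for ICH and 6.76% ± 0.799 for ICH + BYHWD. The largest difference, 0.759 percentage points between ICH + BYHWD and sham, was above the SD of sham and below that of ICH + BYHWD. The two-sided exact permutation p was 1 between ICH and sham, 0.4 between ICH + BYHWD and ICH, and 0.3 between ICH + BYHWD and sham. With 3 against 3 libraries the smallest possible value of this test is 0.1. The number of single-row fragments listed was 121, 106 and 124 in sham, 126, 108 and 125 in ICH, and 119, 117 and 127 in ICH + BYHWD. The groups overlapped here too, at means of 117 ± 9.64, 119.7 ± 10.1 and 121 ± 5.29 (SD, n = 3). The exact permutation p was 0.5, 0.8 and 0.7 in the same order of comparisons, and over all 6 tests the adjusted p was 0.96 or above.

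**Figure D2:**
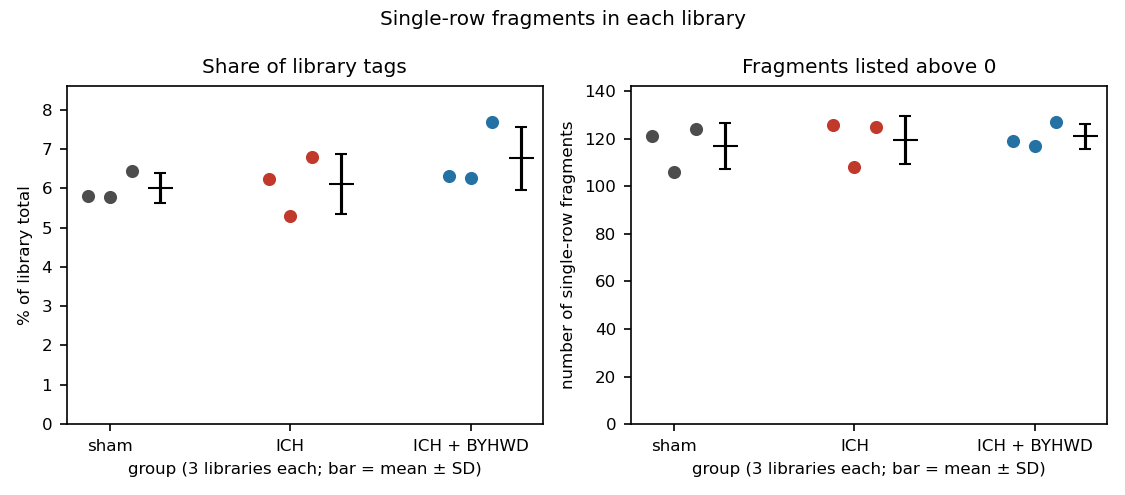
Share of the library total in single-row fragments (percent) and number of single-row fragments listed, 1 point per library, with the mean and SD of the 3 libraries of each group. The points of the groups overlap in both panels, with shares from 5.29 to 7.68% and counts from 106 to 127.

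The abundance within the class was uneven. By their mean over the 9 libraries, with zeros as 0, 15 fragments lay above 1000 TPM, 25 between 500 and 1000 TPM, 42 between 200 and 500 TPM and 100 under 200 TPM. All of the first 40 were listed in every library, but only 30 of the next 42 and 1 of the last 100. The best rank of a single-row fragment among all 530 was 33. There were 2 in the top 50, 12 in the top 100 and 35 in the top 200. The 15 most abundant held 36.7% of the tags of the class on average (32.6 to 38.5%), and the first alone 4.99% (3.88 to 5.79%).

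AS-tDR-010083 was the most abundant, at 2454, 3145 and 3199 TPM in sham, 3187, 2095 and 3940 TPM in ICH, and 2455, 3602 and 4410 TPM in ICH + BYHWD. The groups overlapped, and the lowest library was ICH 2. AS-tDR-006200 came next, at 1354, 1997 and 1989 TPM in sham, 1860, 1059 and 2588 TPM in ICH, and 2600, 2059 and 3450 TPM in ICH + BYHWD. All 3 ICH + BYHWD libraries lay above all 3 sham libraries, while ICH overlapped with both. AS-tDR-010007 had 1445, 2191 and 2334 TPM in sham, 1073, 747 and 2816 TPM in ICH, and 1992, 2302 and 1632 TPM in ICH + BYHWD. Its ICH libraries held both its lowest values and its highest.

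AS-tDR-000085 was even in most libraries but not in ICH + BYHWD 3. It was at 1092, 1667 and 1373 TPM in sham, 1491, 797 and 1543 TPM in ICH, and 1085, 1556 and 3811 TPM in ICH + BYHWD. AS-tDR-000069 had 1483, 1847 and 1550 TPM in sham, 1240, 800 and 1530 TPM in ICH, and 1567, 1650 and 2499 TPM in ICH + BYHWD. The ICH + BYHWD libraries of this fragment lay above those of ICH, and sham overlapped with both. AS-tDR-001363 had 1626, 1611 and 1281 TPM in sham, 845, 656 and 1126 TPM in ICH, and 2111, 1331 and 775 TPM in ICH + BYHWD. Every ICH value of AS-tDR-001363 lay below every sham value, and ICH + BYHWD overlapped with both.

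AS-tDR-009633 was the steadiest of the 15 most abundant, with means (± SD, n = 3) of 1561 ± 99.6 TPM for sham, 1484 ± 299 for ICH and 1441 ± 255 for ICH + BYHWD. AS-tDR-010065 was at 1299 ± 229, 1173 ± 281 and 1380 ± 80.9 TPM, AS-tDR-008054 at 1137 ± 62.9, 1219 ± 337 and 1094 ± 230 TPM, and AS-tDR-000340 at 1069 ± 144, 1175 ± 214 and 1168 ± 242 TPM. The groups of all 4 overlapped in each comparison. AS-tDR-006877 was at 1241 ± 194, 1174 ± 456 and 1878 ± 581 TPM, with overlapping groups as well. AS-tDR-010070 is described with the decoction below. The other 3 of the 15, AS-tDR-010053, AS-tDR-010089 and AS-tDR-010060, belong to the group of 8 in which sham 3 and ICH 3 stood apart.

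**Figure D3:**
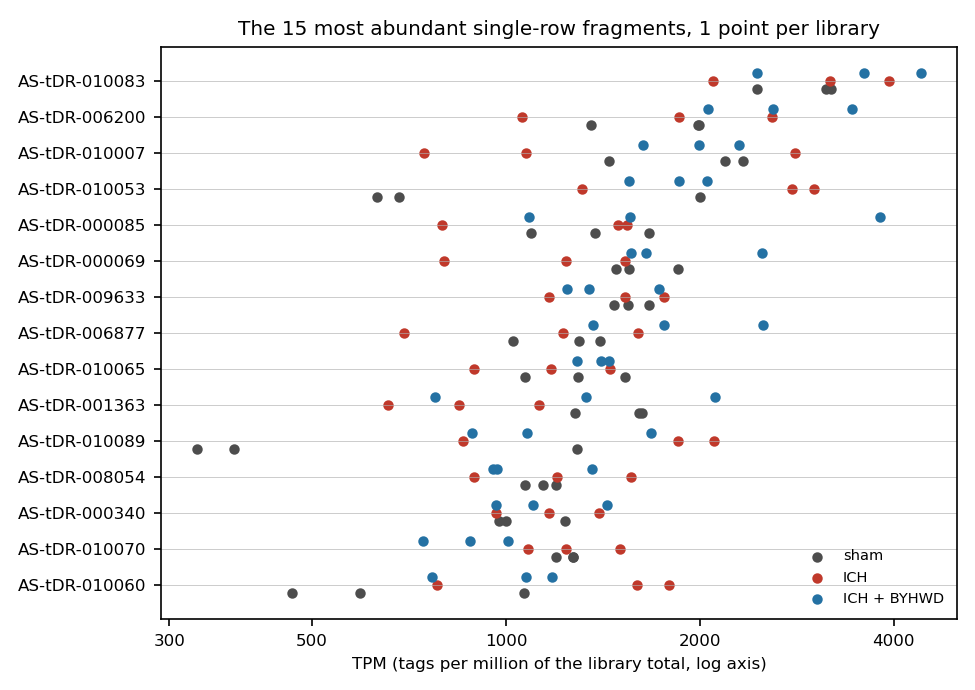
Level of the 15 most abundant single-row fragments (x axis, TPM on a log axis), 1 point per library, with the 3 groups in separate colours. For most fragments the groups overlap; AS-tDR-010070 is lower in all 3 ICH + BYHWD libraries than in all other libraries, and AS-tDR-010089 has 2 of the sham points far below the other one.

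Among the 71 fragments listed in all 9 libraries, the median coefficient of variation of TPM over the 9 libraries was 28.3% (12.6 to 70.6%). It was 27.3% for 2 to 4 rows, 28.3% for 5 or more rows and 28.1% over all 311 fragments listed everywhere. The median SD within groups was 0.41 on the log2 scale, and the median ratio of the highest to the lowest library was 2.74. At these counts, counting error alone gives a coefficient of variation of 2.05 to 8.12%, below the smallest spread measured. The class thus varied about as much as the other fragments once listed everywhere. The requirement to be listed in all 9 libraries removes low and uneven fragments from each class, so these medians do not describe the other 111 single-row fragments.

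The steadiest were AS-tDR-007978, at 12.6%, and AS-tDR-008897, at 13.3%, followed by AS-tDR-009633 at 14.0%, AS-tDR-000160 at 15.3%, AS-tDR-009601 at 15.5% and AS-tDR-010065 at 16.1%. AS-tDR-007978 had means (± SD, n = 3) of 208 ± 27.4 TPM for sham, 212 ± 33.1 for ICH and 195 ± 24.4 for ICH + BYHWD. AS-tDR-000160 was at 511 ± 114, 511 ± 92.7 and 504 ± 52.6 TPM. By this measure the steady fragments included both abundant and scarce ones. AS-tDR-007978 and AS-tDR-008897 lay at 168 to 241 and 161 to 249 TPM, close to the listing minimum. A level under it in any library would have taken them out of the 71. In the scaled edgeR fit of ICH against sham their SEs were 0.57 and 0.61, against 0.17 for AS-tDR-009633. The most variable was AS-tDR-010018 at 70.6%, then AS-tDR-008354 at 62.5%, AS-tDR-009636 at 55.1%, AS-tDR-000085 at 54.7%, AS-tDR-010089 at 53.9% and AS-tDR-010095 at 47.5%. Of these 6, 4 belong to the group of 8 described next.

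The lowest of the 9 libraries was ICH 2 for 50 of the 71 fragments, and in sham 3, ICH 1, ICH 3 and ICH + BYHWD 2 it was the lowest for 0. The highest library was ICH + BYHWD 3 for 27, ICH 2 for 13 and ICH 3 for 10. ICH 2 was thus the lowest library for most of the fragments and the highest for 13 of them. Those 13 included all of the group of 8.

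A set of 8 single-row fragments moved across the libraries together with AS-tDR-000052, the most abundant of all 530 fragments, which itself stood on 10 rows. AS-tDR-000052 held 2.27%, 2.066% and 9.08% of the tags in sham, 12.0%, 14.2% and 5.76% in ICH, and 8.10%, 5.88% and 10.3% in ICH + BYHWD. Pearson's r of log2 TPM with it, over the 9 libraries, was 0.996 for AS-tDR-010089, 0.992 for AS-tDR-010053, 0.989 for AS-tDR-008354, 0.967 for AS-tDR-010095, 0.960 for AS-tDR-010018, 0.959 for AS-tDR-010060, 0.955 for AS-tDR-010055 and 0.906 for AS-tDR-010016. The next was AS-tDR-007656 at 0.605, and the median over the 71 was -0.20. Fragments on more rows were not set against AS-tDR-000052, so the pattern is not shown to be particular to the class. The limit of 0.9 was chosen after the values were seen, and the points share their library and its total. A fragment that takes 2 to 14% of the tags in itself lowers the TPM of the others, so part of the values below 0 can come from the unit. How large that part is was not tested.

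AS-tDR-010053 was at 631, 681 and 2004 TPM in sham, 2780, 3005 and 1311 TPM in ICH, and 1857, 1555 and 2055 TPM in ICH + BYHWD. AS-tDR-010089 was at 378, 331 and 1289 TPM in sham, 1854, 2108 and 859 TPM in ICH, and 1079, 885 and 1679 TPM in ICH + BYHWD. For both, sham 1 and sham 2 were the lowest libraries and ICH 1 and ICH 2 the highest. In both, sham 3 was above ICH 3, so sham and ICH overlapped.

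AS-tDR-008354 had 242, 207 and 1127 TPM in sham, 1213, 2037 and 643 TPM in ICH, and 935, 646 and 1004 TPM in ICH + BYHWD. AS-tDR-010018 had 249, 151 and 1019 TPM in sham, 1122, 1815 and 403 TPM in ICH, and 749, 395 and 786 TPM in ICH + BYHWD. AS-tDR-010060 had 594, 466 and 1066 TPM in sham, 1599, 1792 and 781 TPM in ICH, and 1076, 766 and 1180 TPM in ICH + BYHWD. The order of the libraries was much the same in these as in the first pair, with sham 3 above ICH 3. AS-tDR-010095 was at 237, 203 and 548 TPM in sham, 745, 908 and 437 TPM in ICH, and 444, 335 and 713 TPM in ICH + BYHWD. AS-tDR-010055 was at 193, 183 and 373 TPM in sham, 577, 594 and 258 TPM in ICH, and 373, 273 and 398 TPM in ICH + BYHWD. AS-tDR-010016 was at 182, 161 and 258 TPM in sham, 409, 517 and 227 TPM in ICH, and 327, 209 and 430 TPM in ICH + BYHWD. In these 3 as well the only overlap of sham with ICH was between sham 3 and ICH 3.

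**Figure D4:**
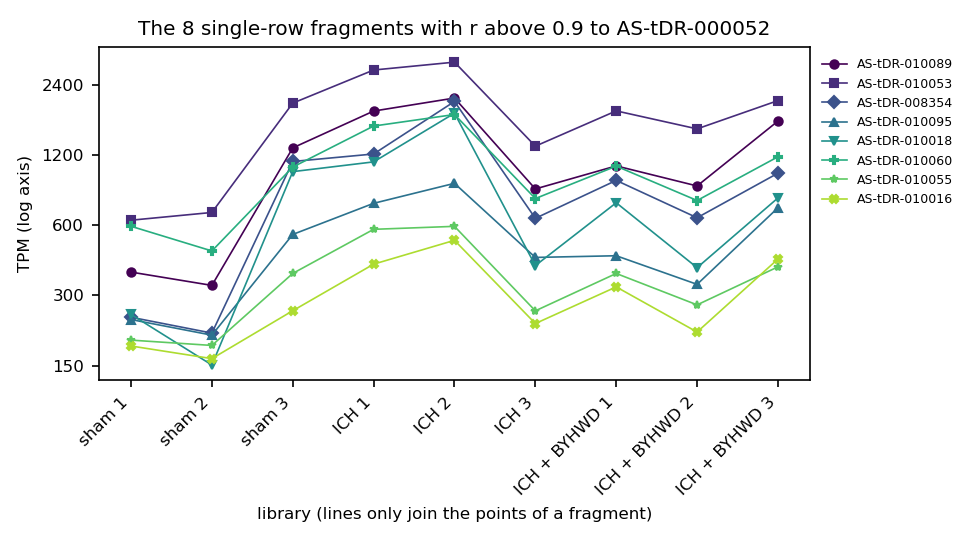
Level of the 8 fragments with r above 0.9 to AS-tDR-000052 (y axis, TPM on a log axis) in each of the 9 libraries (x axis), 1 line per fragment. All 8 are low in sham 1 and sham 2 and high in ICH 1 and ICH 2, while sham 3 and ICH 3 lie in between.

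Together the 8 held 0.271%, 0.238% and 0.768% of the library total in sham, 1.03%, 1.28% and 0.492% in ICH, and 0.684%, 0.506% and 0.825% in ICH + BYHWD. This was 4.13% of the tags of the class in sham 2 and 24.2% in ICH 2. Without them the share of the class in the library total was 4.01 to 6.86%. The 8 made ICH 2 the library richest in this set, while the other single-row fragments were scarcest there. The fragments on 2 to 4 rows had their lowest share in ICH 2 as well, at 12.1% of the library total.

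In ICH against sham, the log2 fold changes of the 8 ran from 1.18 to 1.59, and none passed the edgeR test after Benjamini-Hochberg adjustment. Values above 1 were not particular to the class. Among fragments listed in all 9 libraries they were found for 8 of 71 single-row fragments and 44 of 311 overall. On 2 to 4 rows they were found for 16 of 113, and on 5 or more rows for 20 of 126. The direction of the 8 was the same in 19 of 19 settings. The size depended on the scaling, filter and tool. With no library of ICH or sham left out, other settings gave 0.88 for AS-tDR-010060 at the lowest. The lowest values of AS-tDR-010055 and AS-tDR-010016 were 0.84 each, and AS-tDR-008354 reached 2.35. Single libraries moved both the size and the call. Without ICH 2 the 8 values were 0.71 to 1.08, more than 1.5 times smaller for 5 of them, among these AS-tDR-008354 at 0.86 and AS-tDR-010018 at 0.75. Without sham 1 they were 0.85 to 1.07, and without sham 2 they were 0.81 to 1.02. In the other direction, with sham 3 left out, the log2 fold change of AS-tDR-008354 went from 1.59 (adjusted p = 0.508, edgeR) to 2.62 (adjusted p = 0.009, edgeR), and that of AS-tDR-010089 from 1.52 (adjusted p = 0.507, edgeR) to 2.25 (adjusted p = 0.011, edgeR). AS-tDR-010053, AS-tDR-010095 and AS-tDR-010018 passed without sham 3 too, at log2 fold changes of 1.92, 1.73 and 2.56. Over all fragments tested without sham 3, 8.35% were called higher. AS-tDR-010060, AS-tDR-010055 and AS-tDR-010016 did not, at edgeR adjusted p values of 0.051, 0.066 and 0.212. Sham 3 was a library of the sham group by its label, and nothing in the labels sets it apart.

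Other fragments ran the other way. AS-tDR-009636 had r = -0.90 with AS-tDR-000052 over the 9 libraries, and AS-tDR-008095 had r = -0.87. AS-tDR-009636 was at 1657, 1503 and 650 TPM in sham, 509, 323 and 884 TPM in ICH, and 548, 584 and 811 TPM in ICH + BYHWD. Here sham 1 and sham 2 were the highest libraries and sham 3 lay within the range of ICH. AS-tDR-008095 was at 417, 421 and 251 TPM in sham, 198, 145 and 224 TPM in ICH, and 210, 184 and 246 TPM in ICH + BYHWD. Its 3 sham libraries were above all others, with sham 3 just above ICH + BYHWD 3.

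**Figure D5:**
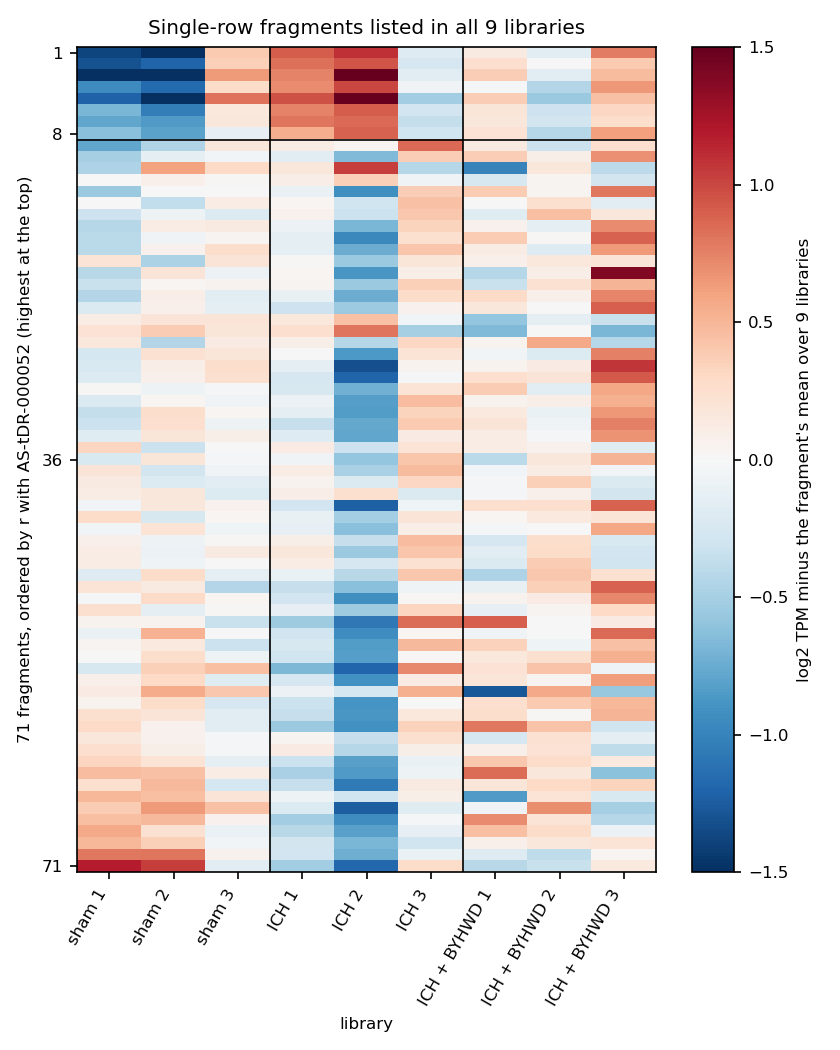
Level of the 71 single-row fragments listed in all 9 libraries (rows, ordered by r with AS-tDR-000052) in each library (columns), as log2 TPM minus the fragment's mean over the libraries. The first 8 rows, above the line, are low in sham 1 and sham 2 and high in ICH 1 and ICH 2; most of the other rows are lowest in ICH 2.

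The order of the rows in the tables followed some of this. The 182 fragments formed 71 runs of adjoining rows, 30 of which held 2 or more fragments (141 in all), with up to 12 in 1 run. Over the 9 libraries, the median r of log2 TPM was 0.27 for all 2485 pairs of fragments listed everywhere, 0.20 for the 130 pairs within a run and 0.88 for the 31 pairs on neighbouring rows. Of the neighbouring pairs, 14 had r above 0.9. These correlations share libraries and totals and are given as a description.

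Some runs moved as a unit and others did not. In the run of 6 from AS-tDR-007020 to AS-tDR-006267 the median r was 0.94 and the lowest 0.89. Their summed share was 0.285%, 0.408% and 0.385% in sham, 0.332%, 0.213% and 0.465% in ICH, and 0.389%, 0.339% and 0.580% in ICH + BYHWD. The groups overlapped, with ICH 2 lowest. In the run of 7 from AS-tDR-006065 to AS-tDR-006200 the median r was 0.88, but the lowest was 0.37. In the run of 12 from AS-tDR-010089 to AS-tDR-010016, of which 10 were listed everywhere, the median r was -0.36. It held 4 of the 8 fragments that moved with AS-tDR-000052, with a median r of 0.95 among themselves and 0.05 among the rest. The run of 9 from AS-tDR-010055 to AS-tDR-010084 was split the same way, at 0.97 among 3 of the 8 and 0.14 among the other 6.

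The comparison of ICH with sham asks which fragments differ around a haemorrhage. Of the 182 fragments, 136 had enough counts to be tested, 71 of them listed in all 9 libraries, and the 46 not tested were each listed in 1 or 2 libraries. By the edgeR quasi-likelihood test, 0 were higher and 0 lower in ICH after Benjamini-Hochberg adjustment, with a background of 0% of the 455 fragments tested in either direction. Their smallest edgeR adjusted p was 0.507. An unadjusted p under 0.05 was reached by 6 in the higher direction, where the background is 5.27%, and by 5 in the lower, where it is 3.74%. Limma-voom also called 0, and the DESeq2 calls were 6 higher (background 3.74%) and 2 lower (background 2.2%), or 4.41% and 1.47% of the 136. A count of 0 in at least 1 library was found in 6 of those 8. With sham 3 left out, 149 could be tested, and 10 passed the edgeR threshold as higher (6.71%, background 8.35%) and 1 as lower (0.671%, background 0.835%). Of these 11, 5 had a 0 in at least 1 library. The shares are not above the background. The groups did not overlap for 4 that were higher in ICH (background 4.84%) and 12 that were lower (background 8.35%). These shares, 2.94% and 8.82% of 136, are near the background. The median log2 fold change of the 136 was 0.00, against -0.02 over all 455.

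AS-tDR-002163 had the smallest p among the lower fragments. It was at 933, 847 and 646 TPM in sham against 547, 411 and 539 TPM in ICH, with 698, 743 and 765 TPM in ICH + BYHWD. Every ICH library lay below every other library. Its log2 fold change against sham was -0.54 (SE 0.17, edgeR adjusted p = 0.507). AS-tDR-010081 was at 426, 508 and 441 TPM in sham and 284, 139 and 288 TPM in ICH, without overlap, and its log2 fold change was -0.85 (SE 0.32). AS-tDR-009636, with the library values given above, had -1.07 (SE 0.35), and its groups overlapped through sham 3. AS-tDR-000894 (-0.68, SE 0.29) and AS-tDR-010096 (-0.55, SE 0.22) had sham libraries that all lay above those of ICH. For AS-tDR-008095 the value was -0.80 (SE 0.35). All of these fragments shared the edgeR adjusted p of 0.507, and none passed the threshold.

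On the higher side, 4 of the 6 fragments with the smallest p were from the group of 8 that moved with AS-tDR-000052. They were AS-tDR-010095, AS-tDR-010060, AS-tDR-010016 and AS-tDR-010055, with log2 fold changes of 1.33 (SE 0.55), 1.23 (SE 0.50), 1.20 (SE 0.49) and 1.18 (SE 0.49). AS-tDR-007656 was at 366, 460 and 708 TPM in sham, 679, 646 and 1132 TPM in ICH, and 687, 503 and 745 TPM in ICH + BYHWD. Only sham 3 overlapped with the ICH values, and its log2 fold change was 0.79 (SE 0.28, edgeR adjusted p = 0.507).

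The sixth was AS-tDR-007825, listed at 0 in sham 1 to 3, at 362, 425 and 254 TPM in ICH, and at 0, 290 and 174 TPM in ICH + BYHWD. AS-tDR-009666 was also listed at 0 in all sham libraries, with 169, 177 and 158 TPM in ICH and 0, 0 and 149 TPM in ICH + BYHWD. Both were listed in all ICH libraries and in none of sham, but the second lay close to the listing minimum throughout. These were the only 2 of the 182 fragments listed in all 3 libraries of one group and at 0 in all 3 of another. For ICH listed and sham at 0 this was 1.10% of the class, against 4 of all 530, or 0.755%. Of all 530, 1 was listed in sham and at 0 in ICH. Another 1 was listed in ICH and at 0 in ICH + BYHWD, and 2 were listed in ICH + BYHWD and at 0 in ICH. No fold is given against zeros that only mark a level under the minimum.

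The comparison of ICH + BYHWD with ICH asks what differs with the decoction in rats that all had a haemorrhage. It shares the ICH libraries with the comparison above. After adjustment of the edgeR test, 0 fragments were higher and 0 lower (background 0% and 0%), down to a smallest adjusted p of 0.533. An unadjusted p under 0.05 was reached by 4 higher (background 4.4%) and 3 lower (background 2.2%). Limma-voom called 0. The DESeq2 calls were 1 higher (background 1.1%) and 3 lower (background 1.1%), or 0.735% and 2.21% of the 136, and all 4 were listed at 0 in at least 1 library. The groups did not overlap for 14 that were higher with the decoction (background 11.4%) and 2 that were lower (background 1.32%), or 10.3% and 1.47% of the 136. The median log2 fold change was -0.05, against -0.09 over all tested.

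AS-tDR-006535 was at 681, 355 and 799 TPM in ICH and 993, 993 and 1537 TPM in ICH + BYHWD, with 809, 937 and 870 TPM in sham. The 3 groups did not overlap, with ICH lowest and ICH + BYHWD highest. Its log2 fold change with the decoction was 0.68 (SE 0.22, edgeR adjusted p = 0.533). AS-tDR-006325 was at 454, 236 and 529 TPM in ICH and 647, 619 and 1025 TPM in ICH + BYHWD, at 0.65 (SE 0.24). The next were AS-tDR-005750 at 0.47 (SE 0.19) and AS-tDR-006323 at 0.37 (SE 0.14), again with every ICH + BYHWD library above every ICH library. AS-tDR-007129 (0.60, SE 0.32) and AS-tDR-000069 (0.40, SE 0.20) did not overlap either. None of them passed the threshold. In each of these fragments, ICH 2 was the lowest of the 9 libraries, as it was for 50 of the 71 fragments listed everywhere. Without scaling factors the log2 fold change of AS-tDR-006535 was 0.98, and without ICH 2 it was 0.48.

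AS-tDR-010070 was lower with the decoction. It was at 1195, 1271 and 1270 TPM in sham, 1239, 1506 and 1082 TPM in ICH, and 742, 1008 and 880 TPM in ICH + BYHWD. All 3 ICH + BYHWD libraries lay below the other 6, and sham and ICH overlapped. The log2 fold change against ICH was -0.93 (SE 0.29, edgeR adjusted p = 0.533), against -0.48 without scaling factors and -0.60 without ICH 2. Against sham it was -0.67 (SE 0.29, edgeR adjusted p = 0.997). AS-tDR-008565 was at 662, 969 and 394 TPM in ICH and 352, 556 and 344 TPM in ICH + BYHWD, at -1.13 (SE 0.46), or -0.62 without scaling factors and -0.55 without ICH 2. Here the ranges overlapped through ICH 3, while all 3 sham libraries, at 643, 720 and 631 TPM, lay above those with the decoction. AS-tDR-008054 had -0.43 (SE 0.18), AS-tDR-007656 had -0.62 (SE 0.28) and AS-tDR-010084 had -1.18 (SE 0.57) against ICH, all with overlapping groups. Their mean TPM, which carries no scaling factor, differed by less than these fold changes. For AS-tDR-008054 it was 1219 in ICH and 1094 in ICH + BYHWD. The means were 819 and 645 for AS-tDR-007656, and 543 and 330 for AS-tDR-010084.

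The comparison of ICH + BYHWD with sham asks whether treated rats differ from rats without a haemorrhage. It shares libraries with both comparisons above. Here too, 0 fragments were higher and 0 lower after adjustment of the edgeR test (background 0% and 0%), down to a smallest adjusted p of 0.749. An unadjusted p under 0.05 was reached by 1 higher (background 0.22%), AS-tDR-007825, and by 3 lower (background 3.96%). Limma-voom called 0. The DESeq2 calls were 5 higher (background 2.42%) and 4 lower (background 1.76%), or 3.68% and 2.94% of the 136, and 8 of the 9 were listed at 0 in at least 1 library. Without sham 3, edgeR called 5 of 149 as higher (3.36%, background 3.55%), each with a 0 in at least 1 library, and 0 as lower (background 0%). The groups did not overlap for 9 that were higher in ICH + BYHWD (background 7.47%) and 4 that were lower (background 3.08%). The median log2 fold change was 0.06 both for the 136 and over all tested.

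AS-tDR-007295 was at 1063, 1022 and 861 TPM in sham and 418, 866 and 640 TPM in ICH + BYHWD, with 713, 611 and 799 TPM in ICH. Sham 3 lay just under ICH + BYHWD 2, and otherwise sham was higher. The log2 fold change against sham was -0.77 (SE 0.26, edgeR adjusted p = 0.749). AS-tDR-009636 had -1.13 (SE 0.35, edgeR adjusted p = 0.749) and AS-tDR-008095 had -0.92 (SE 0.35, edgeR adjusted p = 0.980). The library values of both were given above, where sham 1 and sham 2 were well above all treated libraries. Among the higher fragments listed everywhere, AS-tDR-000076 had 605, 775 and 827 TPM in sham and 1099, 907 and 1367 TPM in ICH + BYHWD. Its groups did not overlap, and the log2 fold change was 0.45 (SE 0.20, edgeR adjusted p = 0.997). AS-tDR-000084 had 0.38 (SE 0.20, edgeR adjusted p = 0.997), with overlapping groups.

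In the edgeR test of any difference among the 3 groups, 0 of the 136 passed (background 0%), at a smallest adjusted p of 0.608. An unadjusted p under 0.05 was reached by 7, or 5.15%, where the background is 6.37%. They were AS-tDR-002163, AS-tDR-006535, AS-tDR-007295, AS-tDR-007656, AS-tDR-007825, AS-tDR-009636 and AS-tDR-010070. DESeq2 called 2 in this test (1.47%, background 1.76%), and edgeR called 8 of 149 without sham 3 (5.37%, background 5.64%). For none of the 182 fragments did a difference between groups pass the edgeR threshold with all 9 libraries.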

How the data were processed

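Each of 9 small RNA libraries had 1 table of fragment identifiers, tag counts and TPM. The deposited tag counts are whole numbers, used without normalization. The deposited TPM values equal count over library total, without a length term, and were used to print levels and to recover that total. FastQC, cutadapt and Novoalign 2.07.11 are named in the submitters' processing notes, with hg19, a human assembly, as the build. The sources used here do not give how fragments were annotated and counted. Per the labels' protocols, RNA was pretreated to remove modifications that block ligation or reverse transcription, which bears on which fragments are seen.

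Repeated rows held identical values, and 1 row per fragment was kept. Libraries were numbered in accession order within a group and were not paired. Separate rats are not stated, so a p-value here measures only how these libraries spread, which may be technical. Counts of all fragments were fitted with edgeR 4.0.16 (R 4.3.3), with library sizes taken as the sums over tested fragments, TMM factors, filterByExpr at a minimum count of 10 and a robust quasi-likelihood F-test. Adjustment was by Benjamini-Hochberg over the 455 fragments tested, with a threshold of 0.05. Each SE is the absolute log2 fold change over the root of F. DESeq2 1.42.0 and limma-voom (limma 3.58.1) were alternatives, with other scalings, filters and left-out libraries. The edgeR script was tested on simulated data. Single values were compared by two-sided exact permutation tests over the 20 assignments of 3 against 3, and classes by sign flips over 9 libraries (scipy 1.17.1).

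The fragments, lists and tests were chosen with earlier results of these data known. Named were the 15 most abundant fragments, in each comparison the 6 of smallest p on either side, the 6 most and 6 least variable, those at 0 in all libraries of 1 group and listed in all of another, and pairs with adjoining numbers. Named fragments with a 0 in some library are described only where they were listed in all libraries of a group.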

Additional observations from a re-analysis of the deposited data

How the results depend on the processing

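No paired analysis was possible because the labels share no replicate number across groups. The share of tags in ICH against sham, 0.104 percentage points, turned to -0.296 of the listed tags, and with 1 library left out ran from -0.243 to 0.514. The corresponding ranges were 0.194 to 1.00 (ICH + BYHWD against ICH) and 0.298 to 1.00 (treated against sham). The number listed, 2.67 higher in ICH than in sham, turned to -0.333 at the highest listing minimum of the 9 libraries, and ran from -2.83 to 8.5 with 1 library left out. That number ran from -4.5 to 4.5 for ICH + BYHWD against ICH and from -1.5 to 7.5 against sham. The cause was not tested. The DESeq2 calls were 6 higher and 2 lower between ICH and sham, 1 and 3 between ICH + BYHWD and ICH, 5 and 4 between ICH + BYHWD and sham, and 2 among all 3 groups. Over all 455 fragments they were 17 and 10, 5 and 5, 11 and 8, and 8. With 1 library left out, edgeR called 0 to 10 higher and 0 to 1 lower for the first of these comparisons, 0 for the next, 0 to 5 higher and 0 lower for the last pair of groups, and 0 to 8 among all 3, each highest without sham 3, where 479 fragments gave 40 and 4, 0 and 0, 17 and 0, and 27. The other alternatives, among them RLE, no factors, no filter, limma-voom and all 183 fragments, called 0. At an unadjusted p under 0.05, the fragments of the class numbered 1 to 26, 3 to 16, 1 to 18 and 0 to 20 over the alternatives, in the same order. The number of them tested ran from 71 to 182, and the share over all fragments is not given here. These ranges thus show the dependence on the setting and are not a result about the class. Without scaling factors the median log2 fold change of all tested was -0.23, 0.22 and 0.19, and of the class -0.15, 0.20 and 0.16. Of 504 alternative values for 28 named fold changes, 499 stayed on their side of the threshold, 0 reversed and 5 passed it: AS-tDR-007656 and, in 2 comparisons, AS-tDR-008095 with DESeq2, and AS-tDR-009636 and AS-tDR-010095 without sham 3. The 28 do not include ICH against sham for AS-tDR-008354, AS-tDR-010089, AS-tDR-010053 and AS-tDR-010018, which also passed without sham 3. Levels under the listing minimum of 134 to 152 TPM could not be read.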

Other observations

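The numbers in the identifiers were unevenly spread. Of the 182 single-row fragments, 74 (40.7%) had a number in the unbroken block from 9993 to 10104 that ended the numbering of all fragments in the tables, against 15.8% of the fragments on 2 to 4 rows and 5.52% on 5 or more rows. These 74 held 37.9% of the tags of the class, and 24 of them were listed in all 9 libraries, against 47 of the 108 with lower numbers. Of the 8 fragments with r above 0.9 to AS-tDR-000052, 7 had such a number. The sources used here do not say what a number stands for.

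Fragments with adjoining numbers did not all move together. For the 9 pairs with neighbouring numbers and both fragments listed everywhere, r of log2 TPM over the 9 libraries ran from -0.82 for AS-tDR-010095 and AS-tDR-010096 to 0.88 for AS-tDR-000340 and AS-tDR-000339, with a median of 0.67. It was 0.83 for AS-tDR-000085 and AS-tDR-000084, and -0.21 for AS-tDR-010083, the most abundant of the class, and AS-tDR-010084. AS-tDR-010096 was at 494, 389 and 311 TPM in sham, 249, 189 and 305 TPM in ICH, and 454, 401 and 312 TPM in ICH + BYHWD, so it was highest where AS-tDR-010095 was low. The points share their libraries and totals, and no test was made.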
